A study of Mus musculus with 48 samples.

Results

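The genes described here encode potassium channels, voltage-gated sodium channels, TRP channels, acid-sensing channels, the mechanosensitive channel Piezo1 and ATP-gated P2X receptors of mouse pancreatic neuroendocrine tumour cells. They were chosen by symbol alone (Kcn, Scn, Trpc, Trpm, Trpv, Asic, Piezo and P2rx genes, other than Kcnj11), which matched 146 of 39017 identifiers. Of these, 87 reached a mean of 1 CPM (counts scaled to library size) in at least 1 of 16 groups and 59 did not. Just above that limit stood Trpc7, with a highest group mean of 1.03 CPM. Among the 87 were 23 of 30 pore-forming genes of voltage-gated potassium channels, 5 of 10 modifier subunits, 6 of 12 accessory subunits, 9 of 12 genes of calcium- or sodium-activated potassium channels, 10 of 14 inward rectifiers and 6 of 14 tandem-pore-domain potassium channels. They also held 6 of 10 sodium channel alpha subunits, 2 of 4 beta subunits, 10 of 20 TRP channels, 4 of 5 acid-sensing channels, 1 of 2 Piezo genes and 3 of 7 P2X receptors. The remaining 2, Trpc4ap and the antisense transcript Kcnmb4os2, matched by name and encode no channel.

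Polyadenylated RNA was sequenced in 48 libraries, 3 in each group, from the lines βTC3 and AJ-5257-1 (AJ below). The study asked how such cells respond to ALK7, a receptor kinase for activin B encoded by Acvr1c. In batch 1, each line carried a doxycycline (dox) inducible plasmid. It encoded constitutively active ALK7 (ALK7-CA) and was induced for 2 or 24 h, or it was the control plasmid (vector), with dox for 0, 2 or 24 h at 2 µg/ml. In batch 2, vector cells of each line without dox were given activin B at 50 ng/ml for 24 h or left without it. Batch 2 also held AJ cells with a plasmid for ALK7 itself, all with dox for 24 h, again with or without activin B. No group held receptor plasmid cells without dox. At 2 h and at 24 h, a standing difference between the transfected cells and a response to the induced receptor thus cannot be told apart. The 3 libraries of a group are triplicate wells per the labels, and a p-value speaks only of the spread among them.

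Potassium channels pull the membrane potential of an endocrine cell down, and sodium, TRP, acid-sensing, Piezo and P2X channels let cations in and push it up. In beta cells, closure of ATP-sensitive potassium channels starts the electrical activity that opens calcium channels and releases insulin, and voltage-gated, calcium-activated and tandem-pore-domain potassium channels shape and end that activity. Receptors of the activin family act through kinase activity and SMAD proteins that bind short GTCTG or CAGAC elements in DNA.

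Levels below are CPM scaled over all 48 libraries, changes are log2 fold changes, and the words rose and fell are kept for an adjusted p under 0.05 in edgeR's quasi-likelihood test. Total counts ran from 17.98 to 38.8 M (median 26.1 M). The endocrine markers that were checked (Chga, Chgb, Syp, Ins1, Ins2, Pdx1, Neurod1, Isl1, Nkx2-2, Pax6) all reached 1 CPM in at least 1 group of each line. Ins1 and Ins2 were far lower in AJ. Outside ALK7-CA at 24 h, Ins1 stood there at 1.05 to 1.49 CPM and Ins2 at 0.0171 to 1.82 CPM. In βTC3 they ran from 2563 to 5098 CPM and from 8438 to 19316.5 CPM. The AJ group with ALK7-CA at 24 h, at 57.8 and 208 CPM, holds the library described below that stood apart. The markers of other cells were low in sum: 9.89 to 36.0 CPM over the groups of βTC3 and 2.67 to 6.37 CPM of AJ for 8 macrophage genes, and at most 8.89 CPM for fibroblast, endothelial and glial genes. Acvr1c did not rise with any receptor plasmid (log2 change -0.66 in βTC3 and -1.48 in AJ with ALK7-CA at 24 h, and 0.25 with ALK7, adjusted p = 0.16), so its count does not check the plasmid labels. One library stood apart. Replicate 1 of AJ with ALK7-CA at 24 h held transcripts of 27 genes nearly absent from AJ at a median of 5.13% of their βTC3 level, against at most 0.0892% in any other AJ library. Values of that comparison that it moves are given with and without it. For 23 of the 87 genes, another gene at 0.3 CPM or more overlaps on the opposite strand. The strand setting of the counting is not given in the sources used here, so the 2 genes of such a pair may share reads.

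The promoter windows of 4 channel genes that the results turn on are shown to place the letters of the SMAD element beside the values: Piezo1, which rose in βTC3 alone, Scn1a, which rose at 2 h in AJ, and Kcng4 and Kcnj6, which rose at 24 h in both lines. The windows run from 250 bases before to 50 bases after the transcript start, 5′ to 3′ on the minus strand of each gene (RefSeq, GRCm38.p6), with CAGAC or GTCTG in capitals.
Piezo1: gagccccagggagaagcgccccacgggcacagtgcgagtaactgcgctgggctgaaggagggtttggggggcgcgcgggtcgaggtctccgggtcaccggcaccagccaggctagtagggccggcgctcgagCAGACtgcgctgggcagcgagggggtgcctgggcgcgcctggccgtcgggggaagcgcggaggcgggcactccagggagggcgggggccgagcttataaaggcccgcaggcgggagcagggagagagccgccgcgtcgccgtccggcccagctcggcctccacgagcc
Scn1a: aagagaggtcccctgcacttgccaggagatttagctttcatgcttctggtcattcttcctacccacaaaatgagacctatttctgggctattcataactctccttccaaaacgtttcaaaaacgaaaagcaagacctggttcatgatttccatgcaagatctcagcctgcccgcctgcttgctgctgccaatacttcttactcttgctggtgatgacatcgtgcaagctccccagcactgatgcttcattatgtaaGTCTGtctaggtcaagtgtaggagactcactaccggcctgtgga
Kcng4: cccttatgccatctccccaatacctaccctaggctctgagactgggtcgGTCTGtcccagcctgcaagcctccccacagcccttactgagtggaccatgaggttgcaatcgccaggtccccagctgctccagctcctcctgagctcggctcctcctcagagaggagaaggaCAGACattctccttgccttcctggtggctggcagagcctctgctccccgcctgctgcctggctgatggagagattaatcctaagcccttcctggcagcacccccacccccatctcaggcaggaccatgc
Kcnj6: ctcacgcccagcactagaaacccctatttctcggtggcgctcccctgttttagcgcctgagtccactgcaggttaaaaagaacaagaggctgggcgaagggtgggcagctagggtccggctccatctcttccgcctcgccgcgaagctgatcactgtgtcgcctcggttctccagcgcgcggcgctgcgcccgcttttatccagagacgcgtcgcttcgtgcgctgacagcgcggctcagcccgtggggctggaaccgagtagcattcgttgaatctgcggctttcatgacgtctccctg
They lie at chr8:122551280-122551579 (Piezo1), chr2:66440788-66441087 (Scn1a), chr8:119635631-119635930 (Kcng4) and chr16:94997647-94997946 (Kcnj6). CAGAC or its reverse complement GTCTG stood once in the windows of Piezo1 and Scn1a, 2 times in Kcng4 and in neither orientation in Kcnj6. The 5 letters are common: 49.59% of 32851 windows of the table held them, and 52.27% of the 88 windows of the 64 channel genes that matched. A match is a run of letters and not a site shown to be bound, and this window of Kcnj6 is only 1 of 2 listed for that gene.

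The channel genes at the highest level per length differed between the lines. In vector cells at 0 h of batch 1, Kcnh6, a voltage-gated potassium channel of the erg type, led both, with 51.6 ± 9.87 CPM per kb of exon in βTC3 and 88.4 ± 7.48 in AJ (SD, n = 3 each, as below). Trpc4ap, which is no channel, was left out of the order. In βTC3 Kcnh6 was followed by Kcnk16, a tandem-pore-domain channel known from islets, with 38.2 ± 6.22 CPM per kb, and the spreads of the 2 genes overlapped. Trpm7, an ion channel fused to a kinase, came next with 21.0 ± 3.32, then Kcnab3, a cytoplasmic potassium channel subunit, with 10.96 ± 0.543. After it came Trpm5, a calcium-activated cation channel of taste and beta cells, with 10.3 ± 0.582, and its spread overlapped that of Kcnab3. In AJ the order was Kcnh6, the sodium channel beta subunit Scn3b with 20.2 ± 0.629 CPM per kb, the calcium sensor Kcnip3 with 18.9 ± 0.359, then Asic1, an acid-sensing channel, with 11.96 ± 0.690 and Trpm7 with 11.9 ± 0.807. Asic1 and Trpm7 did not differ beyond their spread.

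Between the lines, βTC3 over AJ in vector cells without dox, 29 channel genes were higher and 47 lower of 83 tested in batch 1. There 36.5% of all genes were higher, 35.6% lower and 72.1% either. In batch 2, 32 were higher and 40 lower of 79, and 37.6% of all genes were higher, 38.5% lower and 76.1% either. Of the 79 tested in both batches, 63 passed in the same direction, 26 of them higher in βTC3 and 37 higher in AJ. The line cannot be told apart from whatever else differs between the cultures, nor, in bulk RNA, fewer cells that express a gene from less of its RNA per cell. Scn9a, a sodium channel alpha subunit of sensory and endocrine cells, stood at 20.5, 18.1 and 23.98 CPM in βTC3, against 0.0712, 0.0342 and 0.0985 CPM in AJ (log2 difference 8.17 in batch 1 and 7.94 in batch 2). Trpm5 stood at 64.4, 63.1 and 70.1 CPM in βTC3, against 1.25, 1.03 and 0.920 CPM in AJ (log2 difference 5.96 in batch 1 and 4.75 in batch 2). Both were higher in each of these βTC3 libraries than in any of the AJ libraries. Kcnh3 was alike (log2 difference 6.13 in batch 1 and 6.05 in batch 2). The receptor-operated cation channel Trpc4 had 2 counts over the 3 AJ libraries of batch 2 and 261 in βTC3, a ratio of 86.5 (95% counting interval 23.7 to 718).

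The converse held for the shaker-type potassium channels Kcna5 and Kcna3, which had no read in the βTC3 vector libraries without dox. Kcna5 stood at 11.1, 10.7 and 10.4 CPM in AJ in batch 1, so that it was at least 273-fold lower in βTC3, with 3 counts over the group as the floor, and at least 413-fold lower in batch 2. Kcna3 was at least 49.0-fold and 73.9-fold lower in βTC3. The acid-sensing channel Asic2 stood at 0.0393, 0.137 and 0.0693 CPM in βTC3, against 48.8, 52.2 and 37.9 CPM in AJ, and the brain sodium channel Scn3a at 1.49, 1.73 and 2.63 CPM in βTC3, against 107, 112 and 121 CPM in AJ. Both were lower in every βTC3 library. Kcnq3, whose product takes part in the M-type potassium current of neurons, was also lower in βTC3 (log2 difference -3.48 in batch 1 and -1.70 in batch 2). Kcnmb1 and Kcnmb2, beta subunits of the large-conductance calcium-activated channel, passed in opposite directions in the 2 batches, Kcnmb1 at 1.68 and -1.31 and Kcnmb2 at -0.66 and 0.26. The batch 2 calls were lost without βTC3 replicate 1, 2 or 3 or AJ replicate 3 (adjusted p = 0.0555 to 0.0960) for Kcnmb1 and without any 1 library other than AJ replicate 1 (adjusted p = 0.0624 to 0.119) for Kcnmb2.

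**Figure D1:**
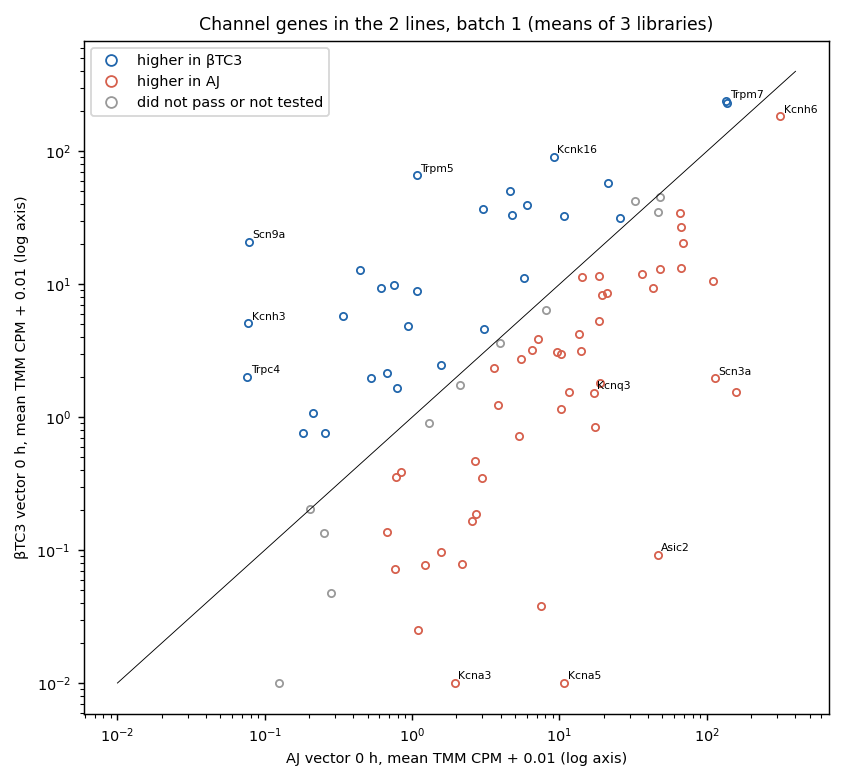
Mean CPM of the 87 channel genes in vector cells at 0 h of batch 1, βTC3 on the y axis and AJ on the x axis, both log scales with 0.01 CPM added. Scn9a and Trpm5 lie far above the diagonal and Kcna5 and Asic2 far below it, and Kcnh6 is near it at the upper end.

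At 24 h in βTC3 with ALK7-CA, a minority of the channel genes passed: 17 rose and 9 fell of 73 tested (35.6%). Of all 15801 genes tested, 8.02% rose and 5.48% fell, 13.5% in all. At 2 h in βTC3, 3 rose and 1 fell of 73 tested (5.48%). Of all 15801 genes tested, 1.25% rose and 0.272% fell, 1.53% in all. With the replicate number as a block, 8 channel genes rose and 2 fell at 2 h, and the share of all genes with the block is not given here. In AJ more changed. At 24 h in AJ, 36 rose and 20 fell of 84 tested (66.7%). Of all 15487 genes tested, 20.8% rose and 19.9% fell, 40.7% in all. At 2 h in AJ, 21 rose and 10 fell of 84 tested (36.9%). Of all 15487 genes tested, 8.24% rose and 7.54% fell, 15.8% in all. Without the block, the share called was thus higher among the channel genes than among all genes each time. But the channel genes had to be detected in some group, while all genes tested include many of low counts. In AJ without replicate 1 of ALK7-CA at 24 h, 33 rose and 19 fell. The median log2 change at 24 h was 0.05 over the channel genes and -0.01 over all genes in βTC3, and 0.23 over the channel genes and -0.01 over all genes in AJ.

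With activin B in βTC3, 19 rose and 11 fell of 68 tested (44.1%). Of all 14429 genes tested, 12.3% rose and 9.97% fell, 22.2% in all. With activin B in AJ vector cells, 20 rose and 7 fell of 79 tested (34.2%). Of all 14872 genes tested, 11.6% rose and 10.9% fell, 22.5% in all. In AJ cells with ALK7, 31 rose and 14 fell of 79 tested (57.0%). Of all 14872 genes tested, 16.5% rose and 16.3% fell, 32.8% in all. More channel genes rose than fell in these 3 comparisons and in the 4 with ALK7-CA. Of the channel genes, 6 reached 1 CPM only in groups with a receptor plasmid or activin B. They were Kcns2, Kcna2, Kcna6, Trpc7, Kcnj5 and Kcnmb4os2. Genes taken in for their level in such groups can tilt these counts and medians upward. The median log2 change was 0.08 over the channel genes and 0.01 over all genes in βTC3, 0.10 over the channel genes and 0.00 over all genes in AJ vector cells, and 0.17 over the channel genes and 0.00 over all genes in AJ cells with ALK7. A second count took the 73 genes with a mean of 1 CPM over all 48 libraries. Of these, 16 rose and 9 fell of 67 tested with ALK7-CA at 24 h in βTC3, and 33 rose and 17 fell of 73 in AJ. The share of all genes at that level was not counted, so these counts have none to be set against. That mean also includes the treated groups.

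**Figure D2:**
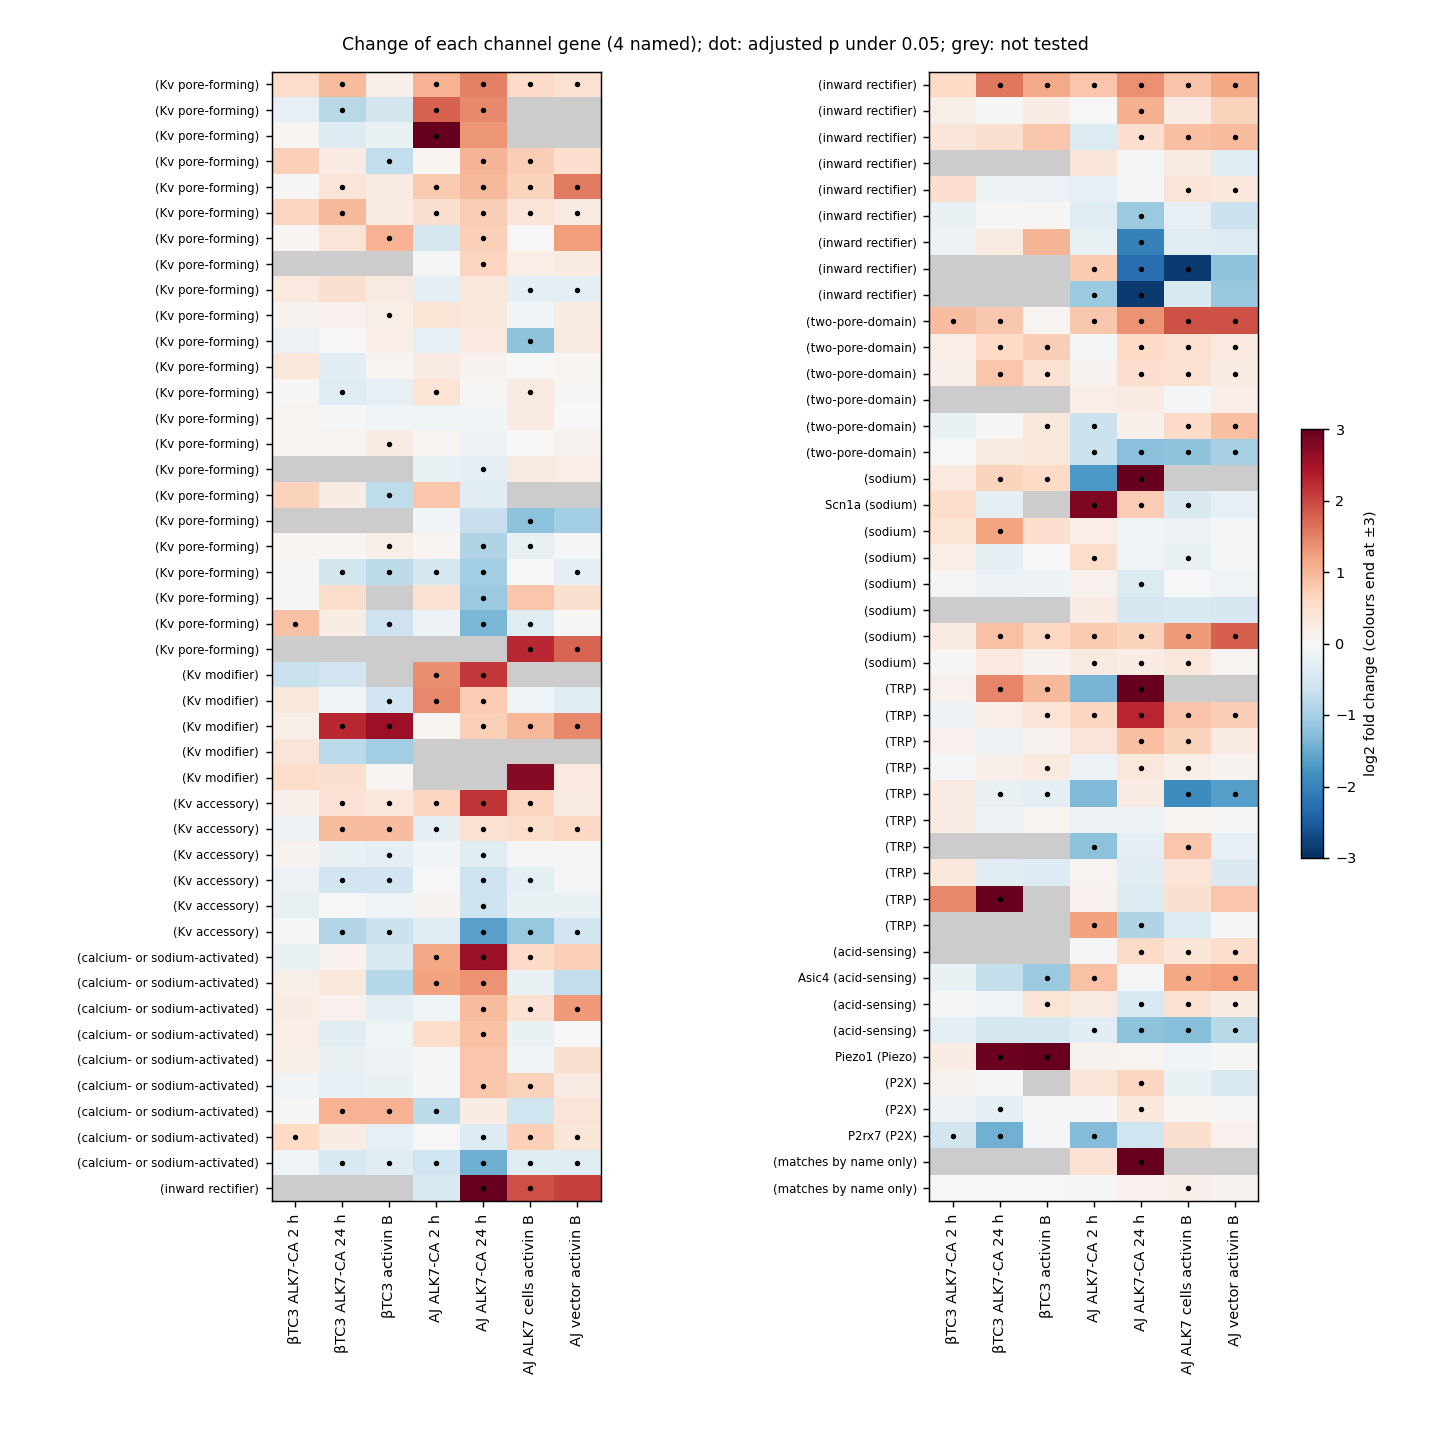
Log2 change of the 87 channel genes (rows, grouped by family and ordered within it by the change in AJ with ALK7-CA at 24 h, with 4 genes named) in the 7 comparisons of ALK7-CA or activin B with their controls (columns), with colours ending at 3 in each direction, a dot where the gene passed and grey where it was not tested. Piezo1 is dark in the βTC3 columns of ALK7-CA at 24 h and activin B and in no AJ column, and Scn1a is darkest in AJ with ALK7-CA at 2 h.

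Piezo1, which encodes a channel opened by stretch of the membrane (ENSMUSG00000014444, GRCm38 chromosome 8, minus strand), rose in βTC3 and not in AJ. In βTC3 at 24 h it stood at 24.2, 26.6 and 17.1 CPM in ALK7-CA libraries, against 3.31, 3.28 and 2.25 CPM in vector libraries (log2 change 2.94, SE 0.26, adjusted p = 3.42e-06). With activin B it stood at 11.5, 16.9 and 13.6 CPM in activin B libraries, against 1.47, 1.41 and 1.26 CPM in untreated libraries (log2 change 3.33, SE 0.17, adjusted p = 9.44e-06). In both comparisons the lowest treated library was several times the highest control library. At 2 h of ALK7-CA in βTC3 it did not pass, at 3.65 ± 0.642 CPM in ALK7-CA libraries and 3.11 ± 0.679 CPM in vector libraries (log2 change 0.22, adjusted p = 0.898), and the difference between the 24 h and 2 h effects did (2.72, adjusted p = 0.000443). The AJ libraries kept near one level, with group means between 9.11 and 11.8 CPM. The effect in AJ minus that in βTC3 was -2.86 with ALK7-CA at 24 h (adjusted p = 5.61e-05) and -3.28 with activin B (adjusted p = 3.27e-06). Ctu2, which overlaps Piezo1 on the opposite strand at up to 32.6 CPM, did not pass in either βTC3 comparison (log2 change -0.04 and -0.08). Piezo2, the other gene of the family, stayed under 1 CPM in every group.

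Scn1a, a voltage-gated sodium channel alpha subunit of neurons (ENSMUSG00000064329, GRCm38 chromosome 2, minus strand), rose in AJ and most at the early time. At 2 h it stood at 18.1, 17.0 and 21.0 CPM in ALK7-CA libraries, against 2.51, 2.68 and 2.94 CPM in vector libraries (log2 change 2.79, SE 0.14, adjusted p = 3.76e-08). All 3 ALK7-CA libraries were above all 3 vector libraries several-fold. At 24 h it stood at 4.20, 5.02 and 5.86 CPM in ALK7-CA libraries, against 2.75, 2.61 and 3.51 CPM in vector libraries (log2 change 0.76, SE 0.14, adjusted p = 0.000720), and at 0.88 on the log2 scale without replicate 1. The 24 h effect was smaller than the 2 h effect (difference -2.03, adjusted p = 8.09e-06). With activin B it did not pass upward. Scn1a stood at 3.08 ± 0.337 CPM in activin B libraries and 3.63 ± 0.732 CPM in untreated libraries in vector cells (log2 change -0.25, adjusted p = 0.304). It stood at 4.15 ± 0.116 CPM in activin B libraries and 5.60 ± 0.192 CPM in untreated libraries in ALK7 cells (log2 change -0.44, adjusted p = 0.0371), and that fall did not pass without any 1 of the 6 libraries (adjusted p = 0.0686 to 0.0985). Scn1a was under 1 CPM in all βTC3 groups. The predicted gene Gm13630 overlaps it on the opposite strand and moved with it at 2 h (log2 change 3.49), at no more than 0.844 CPM.

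P2rx7, an ATP-gated cation channel best known from macrophages and present in other cells, fell in βTC3 with ALK7-CA. At 24 h it stood at 4.15, 3.45 and 3.91 CPM in ALK7-CA libraries, against 10.03, 9.87 and 11.6 CPM in vector libraries (log2 change -1.45, SE 0.11, adjusted p = 7.92e-07), with no overlap. At 2 h it stood at 7.002, 6.89 and 8.05 CPM in ALK7-CA libraries, against 11.7, 9.47 and 10.7 CPM in vector libraries (log2 change -0.54, adjusted p = 0.0233), a fall that did not pass without vector replicate 1 or 3 or ALK7-CA replicate 1 or 2 (adjusted p = 0.0868 to 0.129). The 24 h effect was larger (difference -0.91, adjusted p = 0.00255). With activin B it was at 1.76 ± 0.232 CPM in activin B libraries and 1.86 ± 0.220 CPM in untreated libraries and did not pass (log2 change -0.06, adjusted p = 0.881). In batch 1, βTC3 vector cells without dox stood at 9.38 CPM, so the ALK7-CA and activin B comparisons start from unlike levels of P2rx7. In AJ all groups stayed under 1 CPM, and the fall at 2 h of ALK7-CA, to 0.225 CPM in ALK7-CA libraries against 0.546 CPM in vector libraries, did not pass without vector replicate 2 or 3 or ALK7-CA replicate 1 or 2 (adjusted p = 0.0732 to 0.1395). Of the macrophage list in βTC3, C1qa moved with P2rx7 at 24 h, with 17.5 CPM with ALK7-CA and 30.7 CPM in vector cells. It also stood at 8.002 CPM with activin B and 26.5 CPM without it, where P2rx7 did not pass. Of the 8 genes, only C1qa and Cd68 reached 1 CPM in βTC3, and Cd68 stood at 2.35 CPM with ALK7-CA at 24 h and 2.61 CPM in vector cells. The list summed to 20.1 CPM with ALK7-CA and 33.8 CPM in vector cells at 24 h, and to 9.89 CPM with activin B and 28.4 CPM without it. Ptprc, Adgre1, Csf1r, C1qb, Lyz2 and Aif1 stayed below 0.3 CPM in every group of either line. The part of such cells in the fall of P2rx7 was not tested.

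Asic4, a member of the acid-sensing family that forms no proton-gated current by itself, moved in opposite directions in the lines with activin B. In AJ vector cells it stood at 5.41, 6.63 and 7.11 CPM in activin B libraries, against 3.17, 2.30 and 2.62 CPM in untreated libraries (log2 change 1.23, SE 0.15, adjusted p = 7.31e-05). In AJ cells with ALK7 it stood at 20.9, 19.5 and 24.1 CPM in activin B libraries, against 9.25, 9.12 and 10.4 CPM in untreated libraries (log2 change 1.15, SE 0.13, adjusted p = 2.64e-05). In βTC3 it stood at 2.91, 2.64 and 3.22 CPM in activin B libraries, against 6.502, 5.71 and 6.86 CPM in untreated libraries (log2 change -1.12, SE 0.13, adjusted p = 0.000616). None of these groups overlapped with its control, and the effect in AJ vector cells minus that in βTC3 was 2.35 (adjusted p = 3.39e-05). With ALK7-CA at 2 h in AJ it stood at 14.4 ± 4.46 CPM in ALK7-CA libraries and 7.89 ± 0.906 CPM in vector libraries (log2 change 0.89, adjusted p = 0.0243), a call lost without any 1 library other than ALK7-CA replicate 3 (adjusted p = 0.0504 to 0.102). At 24 h it was at 9.81 ± 0.535 CPM in ALK7-CA libraries and 10.1 ± 2.72 CPM in vector libraries (log2 change -0.05, adjusted p = 0.888). In βTC3 with ALK7-CA at 24 h it stood at 4.23 ± 1.80 CPM in ALK7-CA libraries and 6.99 ± 0.850 CPM in vector libraries (log2 change -0.72, adjusted p = 0.185), short of the threshold, whereas it passed once replicate number entered as a block (log2 change -0.78, adjusted p = 0.00233).

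**Figure D3:**
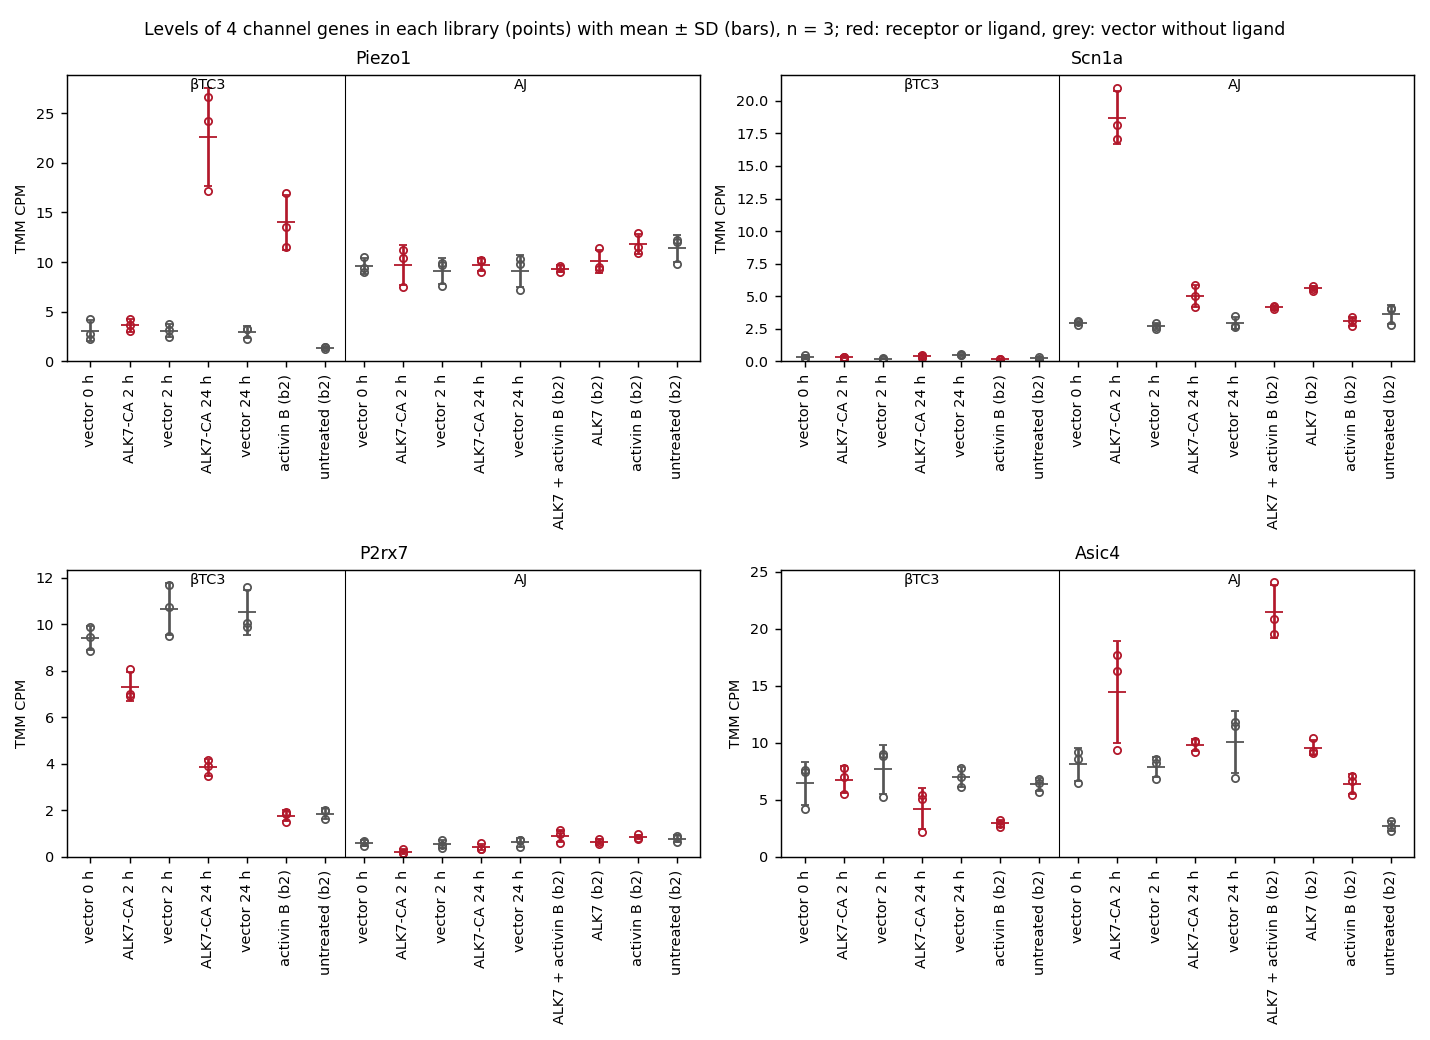
CPM of Piezo1, Scn1a, P2rx7 and Asic4 in each library (points) of the 16 groups, with the mean and SD of 3 libraries (lines), on linear axes. Piezo1 is highest in βTC3 with ALK7-CA at 24 h and with activin B, Scn1a stands out in AJ with ALK7-CA at 2 h, P2rx7 is highest in βTC3 of batch 1 and lower there with ALK7-CA at 24 h, and Asic4 is highest in AJ cells with ALK7 and activin B.

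Of the 87 channel genes, 6 rose in all 5 comparisons made after 24 h (ALK7-CA and activin B in βTC3, ALK7-CA and activin B in AJ vector cells, and activin B in AJ cells with ALK7), which share no libraries. Among them were the modifier subunit Kcng4, the G-protein-activated inward rectifier Kcnj6, the calcium sensor Kcnip3 and the tandem-pore-domain channels Kcnk1 and Kcnk3. A pair of genes fell in all 5: Kcnip4, another calcium sensor of A-type potassium channels, and Kcnt1, a sodium-activated potassium channel. In 4 of the 5, Kcnc1, Kcnip1, Kcnk9, Kcnq3 and Trpv2 rose and Kcnab3, Kcnc2 and Trpm5 fell. With each library left out in turn, the calls of Kcng4, Kcnj6, Kcnip3 and Kcnip4 held in all 5, and those of Kcnk1, Kcnk3 and Kcnt1 were lost in 1 or 2 of them, as given below. In βTC3 with ALK7-CA, that of Kcnc1 was lost without any 1 library other than ALK7-CA replicate 3 (adjusted p = 0.0526 to 0.118), and in ALK7 cells with activin B that of Kcnip1 was lost without ALK7 replicate 2 or ALK7 with activin B replicate 2 (adjusted p = 0.0593 to 0.0597). A further 10 rose in some and fell in others, and 11 passed in none of the 5. Over the 61 channel genes tested in all 5, 9.84% rose in all and 3.28% fell in all, against 2.67% and 1.25% of the 13555 genes so tested, and 13.1% against 4.82% passed in both directions. Of these channel genes 8.20% passed in none of the 5, against 39.9% of all genes.

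**Figure D4:**
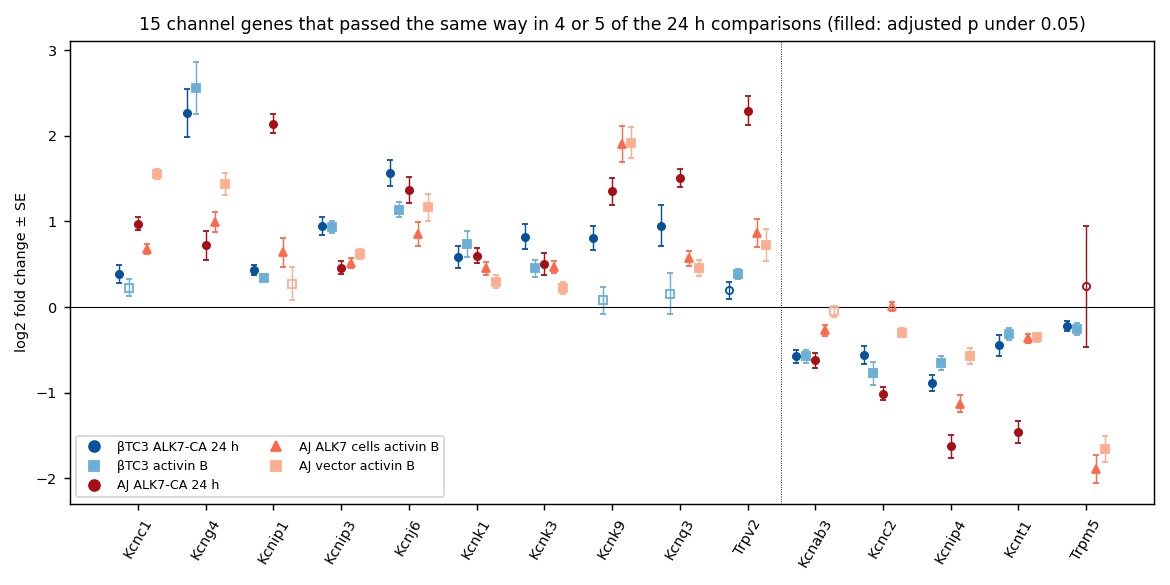
Log2 change ± SE of 15 of the 17 channel genes that passed in the same direction in 4 or 5 of the 5 comparisons after 24 h, with filled points where the gene passed. Kcng4 shows the largest rises in βTC3 and Kcnip4 and Kcnt1 the largest falls in AJ with ALK7-CA.

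Kcng4, whose product opens no channel alone and alters those of the Kcnb genes, stood in βTC3 at 1.58, 1.69 and 1.32 CPM in ALK7-CA libraries, against 0.293, 0.324 and 0.332 CPM in vector libraries (log2 change 2.26, SE 0.28, adjusted p = 8.07e-05). With activin B it stood at 2.32, 2.78 and 1.82 CPM in activin B libraries, against 0.260, 0.599 and 0.340 CPM in untreated libraries (log2 change 2.56, SE 0.31, adjusted p = 0.000709). The βTC3 controls were close to the lower limit of detection, with 28 and 24 counts over 3 libraries, and no library overlapped. In AJ, where it started higher, it stood at 4.01 ± 0.352 CPM in ALK7-CA libraries and 2.41 ± 0.581 CPM in vector libraries at 24 h and at 7.08 ± 0.382 CPM in activin B libraries and 2.59 ± 0.423 CPM in untreated libraries in the activin B comparison of vector cells (log2 changes 0.72 and 1.44). The rise with ALK7-CA at 24 h was smaller in AJ than in βTC3 (difference -1.55, adjusted p = 0.00357). At 2 h it did not pass in either line. In AJ with ALK7-CA, 2 other modifier subunits rose at both times. Kcnf1 stood at 10.3 ± 0.616 CPM in ALK7-CA libraries and 3.81 ± 0.367 CPM in vector libraries at 2 h (log2 change 1.44, adjusted p = 1.20e-06). It stood at 8.26 ± 0.588 CPM in ALK7-CA libraries and 4.87 ± 0.591 CPM in vector libraries at 24 h (log2 change 0.75, adjusted p = 7.66e-05), and fell with activin B in βTC3 (log2 change -0.57, adjusted p = 0.000664). Kcns2 stood at 1.63 ± 0.129 CPM in ALK7-CA libraries and 0.623 ± 0.0447 CPM in vector libraries at 2 h and 2.13 ± 0.238 CPM in ALK7-CA libraries and 0.485 ± 0.157 CPM in vector libraries at 24 h in AJ (log2 changes 1.39 and 2.12).

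Among the 23 pore-forming genes of voltage-gated potassium channels, 7 rose and 5 fell of 22 tested in AJ with ALK7-CA at 24 h, and 3 rose and 3 fell of 19 in βTC3, where 40.7% and 13.5% of all genes passed. Kcnq3 rose in 4 of the 5 comparisons. In AJ at 24 h it stood at 39.7, 44.2 and 42.0 CPM in ALK7-CA libraries, against 14.2, 12.9 and 16.9 CPM in vector libraries (log2 change 1.51, SE 0.10, adjusted p = 6.81e-08). All ALK7-CA libraries lay above all vector libraries. The rise was also past the threshold at 2 h in AJ (log2 change 1.05). In βTC3 Kcnq3 was near 1.31 CPM in vector cells and rose with ALK7-CA at 24 h (log2 change 0.95), a call lost without vector replicate 2 or 3 or ALK7-CA replicate 1 or 2 (adjusted p = 0.0516 to 0.0747).

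Kcnc1, a fast delayed rectifier, and Kcnc2, its close relative, moved in opposite directions. Kcnc1 stood in AJ with activin B at 62.3, 63.5 and 55.8 CPM in activin B libraries, against 20.9, 21.6 and 19.1 CPM in untreated libraries in vector cells (log2 change 1.55, SE 0.060, adjusted p = 7.97e-09). In ALK7 cells it stood at 91.1, 90.8 and 84.5 CPM in activin B libraries, against 56.5, 53.3 and 55.7 CPM in untreated libraries (log2 change 0.68, SE 0.056, adjusted p = 2.34e-06). The libraries did not overlap in either, the ALK7 cells without ligand were already near the level of the vector cells with it, and the effect in ALK7 cells was the smaller (difference -0.88, adjusted p = 0.000178). Kcnc2 stood in AJ with ALK7-CA at 24 h at 16.7, 17.4 and 16.8 CPM in ALK7-CA libraries, against 32.7, 32.8 and 36.5 CPM in vector libraries (log2 change -1.01, SE 0.073, adjusted p = 1.19e-07), and it fell at 2 h too (log2 change -0.52, adjusted p = 0.000221). It fell in βTC3 with ALK7-CA at 24 h and with activin B (log2 changes -0.56 and -0.78), and in ALK7 cells with activin B it did not pass (log2 change 0.01, adjusted p = 0.909). Kcnc4 differed between the lines, with a rise in AJ to 1.39 CPM in ALK7-CA libraries against 0.503 CPM in vector libraries and a fall in βTC3 to 1.45 CPM in ALK7-CA libraries against 2.60 CPM in vector libraries at 24 h (difference 2.27, adjusted p = 0.000809).

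Of the ether-à-go-go genes, Kcnh1, Kcnh5 and Kcnh6 passed in both lines with ALK7-CA or activin B, and Kcnh2 and Kcnh4 in neither. In AJ, Kcnh1 stood with ALK7-CA at 24 h at 27.3, 29.5 and 26.5 CPM in ALK7-CA libraries, against 70.3, 66.3 and 77.2 CPM in vector libraries (log2 change -1.37, SE 0.063, adjusted p = 1.66e-09). Kcnh6 stood at 172, 165 and 143 CPM in ALK7-CA libraries, against 327, 296 and 269.7 CPM in vector libraries (log2 change -0.91, SE 0.13, adjusted p = 0.000107). Both were lower in every ALK7-CA library, and neither passed at 2 h. In βTC3 Kcnh1 rose at 2 h, to 22.2 CPM in ALK7-CA libraries against 11.99 CPM in vector libraries (log2 change 0.89, adjusted p = 0.00109). It did not pass at 24 h (log2 change 0.22, adjusted p = 0.250) and fell with activin B (log2 change -0.63, adjusted p = 0.00344). The difference between its 24 h and 2 h effects there was -0.67 (adjusted p = 0.0202), which did not pass without vector 24 h replicate 1, ALK7-CA 24 h replicate 1, vector 2 h replicate 2 or ALK7-CA 2 h replicate 1 or 3 (adjusted p = 0.0515 to 0.0539). Kcnh6 rose in βTC3 with activin B by 0.19 on the log2 scale, a call lost without vector replicate 1 or 2 or activin B replicate 1 or 3 (adjusted p = 0.0566 to 0.102). Kcnh5 rose in AJ with ALK7-CA at 24 h (log2 change 1.02, adjusted p = 0.000276) and fell in βTC3 with activin B (log2 change -0.74, adjusted p = 0.0106). Kcnh3, nearly absent from AJ vector cells with 7 counts over 3 libraries, had 72 counts with ALK7-CA at 2 h (log2 change 3.27, adjusted p = 0.00217). It overlaps Mcrs1, a gene of up to 161 CPM, on the opposite strand.

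The calcium sensors that join A-type potassium channels split into risers and fallers. Kcnip3, also known as a calcium-dependent transcription factor, stood in βTC3 with ALK7-CA at 24 h at 59.5, 58.9 and 58.3 CPM in ALK7-CA libraries, against 30.4, 32.3 and 29.2 CPM in vector libraries (log2 change 0.95, SE 0.11, adjusted p = 3.06e-05). With activin B in βTC3 it stood at 61.0, 56.5 and 53.4 CPM in activin B libraries, against 30.8, 27.8 and 31.1 CPM in untreated libraries (log2 change 0.93, SE 0.070, adjusted p = 6.21e-05). No treated library overlapped its controls. In AJ it fell at 2 h (log2 change -0.29, adjusted p = 0.0204), which did not pass without vector replicate 2 or 3 or ALK7-CA replicate 3 (adjusted p = 0.0560 to 0.0786), before the rise at 24 h (log2 change 0.46, adjusted p = 0.000342). Kcnip4 stood in AJ with ALK7-CA at 24 h at 4.73, 4.37 and 4.70 CPM in ALK7-CA libraries, against 11.6, 15.5 and 15.3 CPM in vector libraries (log2 change -1.63, SE 0.13, adjusted p = 4.56e-07). In βTC3 it stood at 7.64, 6.99 and 7.86 CPM in ALK7-CA libraries, against 13.7, 12.8 and 15.2 CPM in vector libraries (log2 change -0.88, SE 0.092, adjusted p = 1.58e-05). The direction was down in every comparison after 24 h. Kcnip1 rose in AJ with ALK7-CA at 24 h to 23.9 CPM in ALK7-CA libraries against 5.39 CPM in vector libraries (log2 change 2.14, SE 0.11, adjusted p = 4.58e-09), a larger effect than in βTC3 (0.43, difference 1.70, adjusted p = 1.38e-06). Kcnip4 overlaps 5730480H06Rik and Kcnip1 overlaps Kcnmb1 on opposite strands. The beta subunit Kcnab3 fell in βTC3 with ALK7-CA at 24 h (log2 change -0.58, adjusted p = 0.000112) and in AJ (log2 change -0.62, adjusted p = 9.16e-05).

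Of the 9 genes of calcium- or sodium-activated channels, Kcnt1 fell in all 5 comparisons after 24 h. In AJ with ALK7-CA at 24 h it stood at 18.1, 18.9 and 15.5 CPM in ALK7-CA libraries, against 50.1, 51.9 and 41.1 CPM in vector libraries (log2 change -1.46, SE 0.13, adjusted p = 7.72e-07). At 2 h it stood at 35.0, 31.7 and 25.5 CPM in ALK7-CA libraries, against 48.4, 46.9 and 45.0 CPM in vector libraries (log2 change -0.60, SE 0.12, adjusted p = 0.00478). In βTC3 the falls were smaller, and the calls did not hold with each library left out in turn, though the direction stayed down. With ALK7-CA (log2 change -0.45, adjusted p = 0.0238) the call was lost without vector replicate 1 or 2 or ALK7-CA replicate 2 or 3 (adjusted p = 0.0589 to 0.105). With activin B (log2 change -0.32, adjusted p = 0.0130) it was lost without activin B replicate 2 (adjusted p = 0.0515). The fall with ALK7-CA at 24 h was larger in AJ (difference -1.01, adjusted p = 0.00207). Kcnma1, the pore of the large-conductance channel, passed in both directions in AJ. It fell with ALK7-CA at 24 h (log2 change -0.38, adjusted p = 0.0244), though not without vector replicate 1 or 3 or ALK7-CA replicate 1 (adjusted p = 0.0521 to 0.113), and rose with activin B (log2 change 0.35, adjusted p = 0.00289 in vector cells, log2 change 0.71, adjusted p = 7.00e-06 in ALK7 cells). Its beta subunits Kcnmb4 and Kcnmb2 rose in AJ. Kcnmb4 stood with ALK7-CA at 24 h at 12.6, 11.2 and 9.30 CPM in ALK7-CA libraries, against 2.25, 1.45 and 1.74 CPM in vector libraries (log2 change 2.59, SE 0.29, adjusted p = 8.07e-06). Kcnmb2 stood with activin B at 30.8, 28.8 and 24.7 CPM in activin B libraries, against 12.8, 10.6 and 10.8 CPM in untreated libraries in vector cells (log2 change 1.29, SE 0.092, adjusted p = 1.16e-06). All treated libraries lay above their controls. The antisense transcript Kcnmb4os2, which overlaps Kcnmb4, rose beside it (log2 change 3.25, adjusted p = 0.000330). In βTC3 the beta subunit Kcnmb1 rose with ALK7-CA at 24 h (log2 change 1.03, adjusted p = 0.0404) and with activin B (log2 change 1.04, adjusted p = 0.0455), at 24 and 23 counts over the control libraries. Vector cells at 24 h of dox were themselves far below those without dox, as given below. The first call was lost without any 1 library other than ALK7-CA replicate 3 (adjusted p = 0.0551 to 0.365). The second was lost without any 1 library other than activin B replicate 3 (adjusted p = 0.0901 to 0.157), and with the block for replicate number (adjusted p = 0.0583).

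Kcnj6, a subunit of the inward rectifiers that G proteins open, rose in both lines. At 24 h, Kcnj6 in βTC3 stood at 5.95, 5.86 and 6.85 CPM in ALK7-CA libraries, against 1.99, 1.91 and 2.40 CPM in vector libraries (log2 change 1.57, SE 0.15, adjusted p = 8.07e-06). Kcnj6 in AJ stood at 6.05, 7.12 and 6.20 CPM in ALK7-CA libraries, against 2.63, 1.91 and 2.93 CPM in vector libraries (log2 change 1.37, SE 0.16, adjusted p = 9.69e-06). It had risen there at 2 h (log2 change 0.82, adjusted p = 0.00202). The activin B rises were 1.14 in βTC3, 1.16 in AJ vector cells and 0.86 in ALK7 cells. No treated library of these comparisons overlapped its controls. Kcnj5, a partner subunit, was nearly absent from AJ vector cells, with 6 counts over 3 libraries, and had 364 counts with ALK7-CA at 24 h. Per library it stood at 4.53, 5.06 and 3.88 CPM in ALK7-CA libraries, against 0.0633, 0.0990 and 0.0341 CPM in vector libraries (log2 change 6.00, SE 0.37, adjusted p = 2.56e-08, and 6.00 without replicate 1). It did not pass at 2 h, and the difference between the times was 6.46 (adjusted p = 7.84e-06). With activin B in ALK7 cells it stood at 1.06 CPM in activin B libraries against 0.273 CPM in untreated libraries (log2 change 1.93, adjusted p = 0.0195), which did not pass without ALK7 replicate 1 or 2 or ALK7 with activin B replicate 2 or 3 (adjusted p = 0.0578 to 0.0870). Kcnj9 and Kcnj3, of the same subfamily, rose with activin B in AJ vector cells (log2 changes 0.95 and 0.33), where the libraries of Kcnj3 overlapped between the groups, and in ALK7 cells (0.91 and 0.40). The call of Kcnj3 in vector cells was lost without vector replicate 1 or 3 or activin B replicate 1 or 2 (adjusted p = 0.0636 to 0.0734).

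Other inward rectifiers fell in AJ. Kcnj2, the classical strong rectifier that holds the resting potential, stood with ALK7-CA at 24 h at 1.52, 1.37 and 1.12 CPM in ALK7-CA libraries, against 5.60, 5.28 and 5.38 CPM in vector libraries (log2 change -2.03, SE 0.11, adjusted p = 9.26e-09). It did not pass at 2 h (log2 change -0.20, adjusted p = 0.243). Kcnj15 had risen at 2 h, to 2.22 CPM in ALK7-CA libraries against 1.29 CPM in vector libraries (log2 change 0.79, adjusted p = 0.00724). At 24 h it had fallen, with 0.370, 0.470 and 0.307 CPM in ALK7-CA libraries, against 1.87, 1.68 and 2.08 CPM in vector libraries (log2 change -2.29, SE 0.21, adjusted p = 1.03e-06). The difference between the times was -3.08 (adjusted p = 3.12e-06). The 3 libraries at 24 h were below all vector libraries. Kcnj13 fell at both times (log2 changes -1.11 at 2 h and -2.87 at 24 h, the last with 9 counts over the ALK7-CA libraries and 76 over the vector libraries), and overlaps Gigyf2, which is far more abundant. Kcnj4 fell at 24 h (log2 change -1.11, adjusted p = 0.00356). In βTC3 none of these passed with ALK7-CA or activin B, though Kcnj2 with activin B did with replicate number as a block (log2 change 1.05, adjusted p = 0.0368, and 0.0927 without it), and Kcnj13 and Kcnj15 were not tested there.

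Among the tandem-pore-domain channels, which carry the resting potassium leak, Kcnk1 and Kcnk3 rose in all 5 comparisons after 24 h and Kcnk9 in 4. Kcnk3, an acid-sensitive leak channel, stood in βTC3 with ALK7-CA at 24 h at 8.63, 9.56 and 8.29 CPM in ALK7-CA libraries, against 4.72, 5.15 and 5.12 CPM in vector libraries (log2 change 0.82, SE 0.15, adjusted p = 0.00144). In AJ vector cells with activin B its rise was small (log2 change 0.22, adjusted p = 0.0455) and the libraries of the 2 groups overlapped. That call was lost without any 1 library other than activin B replicate 3 (adjusted p = 0.0691 to 0.155). The rise of Kcnk3 with activin B in βTC3 (log2 change 0.45, adjusted p = 0.0170) was lost without vector replicate 1 or 2 or activin B replicate 1 or 2 (adjusted p = 0.0524 to 0.0722). Kcnk9, a relative of Kcnk3, stood in AJ vector cells with activin B at 8.79, 9.30 and 8.25 CPM in activin B libraries, against 2.50, 2.09 and 2.30 CPM in untreated libraries (log2 change 1.92, SE 0.18, adjusted p = 1.36e-05). In ALK7 cells it stood at 3.32, 3.16 and 3.50 CPM in activin B libraries, against 1.29, 0.594 and 0.720 CPM in untreated libraries (log2 change 1.91, SE 0.21, adjusted p = 2.62e-05). The 2 sets did not overlap their controls. It also rose with ALK7-CA at 2 h, in βTC3 (log2 change 0.92, adjusted p = 0.00397) and in AJ (log2 change 0.80, adjusted p = 0.00259), and its activin B effect was larger in AJ vector cells than in βTC3, where it did not pass (difference 1.85, adjusted p = 0.000165). Kcnk1 stood in βTC3 at 4.62 ± 0.556 CPM in ALK7-CA libraries and 3.09 ± 0.524 CPM in vector libraries at 24 h (log2 change 0.59, adjusted p = 0.00618), and its rise in AJ vector cells with activin B (log2 change 0.30, adjusted p = 0.0174) was lost without vector replicate 1 or 2 or activin B replicate 3 (adjusted p = 0.0504 to 0.0666).

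Kcnk2, a leak channel that stretch and lipids open, fell in all 4 AJ comparisons with ALK7-CA or activin B. With ALK7-CA at 24 h it stood at 2.67, 3.25 and 2.86 CPM in ALK7-CA libraries, against 6.45, 6.80 and 7.74 CPM in vector libraries (log2 change -1.26, SE 0.098, adjusted p = 2.50e-07). With activin B in ALK7 cells it stood at 1.26, 2.08 and 1.45 CPM in activin B libraries, against 3.39, 3.89 and 3.65 CPM in untreated libraries (log2 change -1.20, SE 0.19, adjusted p = 0.000474). The other falls were -0.64 at 2 h and -0.99 with activin B in vector cells. In βTC3 it did not pass (log2 changes 0.26 and 0.32), and both differences between the lines did (-1.53 with ALK7-CA and -1.30 with activin B). Kcnk16, at 81.3 CPM in βTC3 vector cells of batch 2 and 7.97 CPM in AJ, rose with activin B in both (log2 changes 0.32 in βTC3, 0.89 in AJ vector cells, 0.57 in ALK7 cells), in βTC3 not without activin B replicate 1 or 2 (adjusted p = 0.0680 to 0.0739). It fell at 2 h of ALK7-CA in AJ (log2 change -0.64, adjusted p = 0.0453), a call lost without any 1 of the 6 libraries (adjusted p = 0.0682 to 0.144).

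Of the sodium channel genes, the beta subunit Scn3b rose in AJ with ALK7-CA at 2 and 24 h and in ALK7 cells with activin B (log2 changes 0.26, 0.23 and 0.35). The first was lost without vector replicate 2 or 3 or ALK7-CA replicate 3 (adjusted p = 0.0540 to 0.0549) and the second without vector replicate 2 or ALK7-CA replicate 2 (adjusted p = 0.0512 to 0.0650). Of the alpha subunits, Scn9a rose in βTC3 to 43.5 CPM in ALK7-CA libraries against 27.4 CPM in vector libraries at 24 h (log2 change 0.67, adjusted p = 0.000886) and rose with activin B (log2 change 0.59, adjusted p = 0.000453). Scn3a rose in βTC3 with ALK7-CA at 24 h (log2 change 1.18, adjusted p = 0.000569). In AJ Scn8a fell at 24 h (log2 change -0.41, adjusted p = 0.000532) and Scn2a rose at 2 h (log2 change 0.53, adjusted p = 0.00667).

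The Scn9a value in AJ turned on the library that stood apart. With ALK7-CA at 24 h it stood at 3.50, 0.542 and 0.647 CPM in ALK7-CA libraries, against 0.0949, 0.0660 and 0.0682 CPM in vector libraries (log2 change 4.23, SE 0.78, adjusted p = 0.000677), high in replicate 1 and lower in the others. Without that library the log2 change was 2.89 (adjusted p = 0.000287). Trpm5, the other gene far higher in βTC3, stood there at 4.73, 0.506 and 0.204 CPM with ALK7-CA, against 1.58, 1.58 and 1.26 CPM in vector cells. It did not pass with all libraries (log2 change 0.24, adjusted p = 0.821) and fell without replicate 1 (log2 change -2.06, adjusted p = 0.000377). These were the only channel genes that moved by over 0.5 on the log2 scale when it was left out. Of the 56 calls, 50 remained, 6 were lost, among them Kcnab2, P2rx4, Kcnj9, Kcna3 and Kcnma1, and 2 were gained (Trpm5 and Kcnk10).

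**Figure D5:**
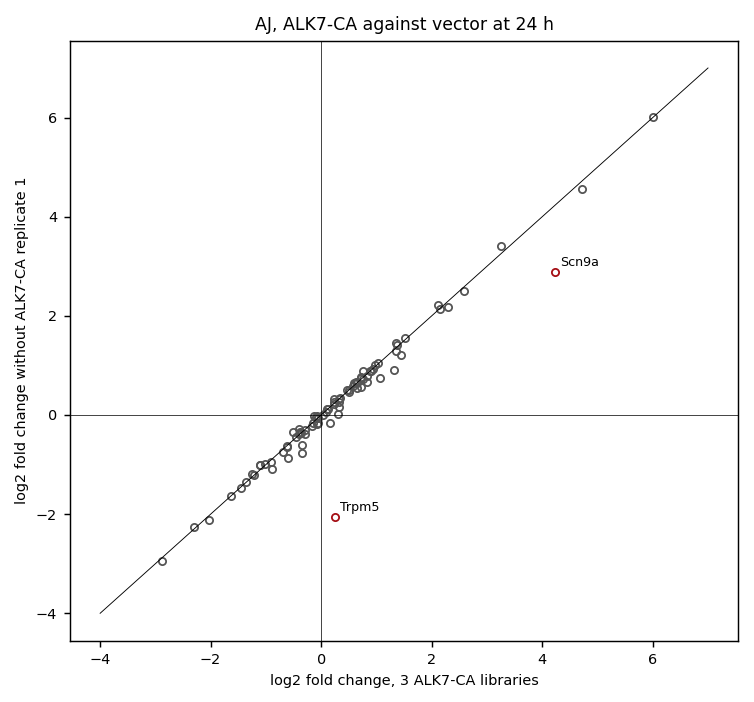
Log2 change of each channel gene in AJ with ALK7-CA at 24 h, with all 3 libraries (x axis) and without replicate 1 of ALK7-CA (y axis). The points follow the diagonal except for Trpm5, which stands at 0.24 with all libraries and -2.06 without it, and Scn9a, at 4.23 and 2.89.

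Of the TRP genes, 4 rose and 1 fell of 10 tested in AJ with ALK7-CA at 24 h, where 40.7% of all genes passed, and 2 rose and 1 fell of 8 in βTC3, where 13.5% did. Trpv2, a channel of stretch and heat in other cells, stood in AJ with ALK7-CA at 24 h at 10.1, 8.24 and 7.67 CPM in ALK7-CA libraries, against 2.21, 1.55 and 1.47 CPM in vector libraries (log2 change 2.30, SE 0.17, adjusted p = 1.41e-07). It rose at 2 h by less (log2 change 0.65, difference 1.64, adjusted p = 0.000191). It also rose with activin B in all 3 comparisons (log2 changes 0.39 in βTC3, 0.73 in AJ vector cells and 0.87 in ALK7 cells). The 2 h call was lost without vector replicate 3 (adjusted p = 0.0693), and that of activin B in vector cells without vector replicate 2 or activin B replicate 1 (adjusted p = 0.0546 to 0.0756). In βTC3, where it is more abundant, ALK7-CA gave no call at 24 h (log2 change 0.20, adjusted p = 0.259). The block for replicate number made it a call (adjusted p = 0.0477). Trpm5 fell in βTC3 with ALK7-CA at 24 h (log2 change -0.22, adjusted p = 0.0154), a call lost without ALK7-CA replicate 1 (adjusted p = 0.0520). It fell there with activin B too (log2 change -0.26, adjusted p = 0.0329), a call lost without vector replicate 1 or 2 or activin B replicate 1 or 3 (adjusted p = 0.0913 to 0.111). In AJ with activin B it also fell, to 0.771 CPM in activin B libraries against 2.43 CPM in untreated libraries in vector cells (log2 change -1.66, adjusted p = 9.32e-06) and to 0.561 CPM in activin B libraries against 2.08 CPM in untreated libraries in ALK7 cells (log2 change -1.89, adjusted p = 2.72e-06).

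Trpc4 stood in βTC3 with ALK7-CA at 24 h at 2.75, 2.41 and 2.56 CPM in ALK7-CA libraries, against 1.09, 0.937 and 0.774 CPM in vector libraries (log2 change 1.46, SE 0.14, adjusted p = 5.76e-06) and rose with activin B (log2 change 0.98, adjusted p = 0.00115). In AJ it had 79 counts over the ALK7-CA libraries at 24 h and 3 over the vector libraries, a ratio of 29.6 (95% counting interval 9.75 to 146). Trpc7, a relative of Trpc4, had 58 counts in βTC3 with ALK7-CA at 24 h and 5 in vector cells (log2 change 3.62, adjusted p = 0.00136), all under 1 CPM. Trpm3 in AJ rose at 2 h to 4.04 CPM in ALK7-CA libraries against 1.75 CPM in vector libraries (log2 change 1.21, adjusted p = 0.000664). It fell at 24 h to 0.990 CPM in ALK7-CA libraries against 1.81 CPM in vector libraries (log2 change -0.89, adjusted p = 0.00393), and the difference between the times passed (-2.11, adjusted p = 0.000137). Trpm7 rose slightly in βTC3 with activin B, in AJ with ALK7-CA at 24 h and in ALK7 cells with activin B (log2 changes 0.28, 0.34 and 0.17), the last not without ALK7 replicate 2 or 3 or ALK7 with activin B replicate 1 or 2 (adjusted p = 0.0719 to 0.142). Trpm4, a calcium-activated cation channel, rose in AJ with ALK7-CA at 24 h (log2 change 0.89, adjusted p = 0.000308), and a ribosomal pseudogene of higher counts, Rpl14-ps1, overlaps it.

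Of the remaining acid-sensing genes, Asic1 and Asic5 were tested in both lines and Asic2 in AJ alone. Asic5 fell in all 4 AJ comparisons, and with activin B in ALK7 cells it stood at 7.997, 8.02 and 9.77 CPM in activin B libraries, against 20.6, 19.8 and 22.0 CPM in untreated libraries (log2 change -1.28, SE 0.092, adjusted p = 7.30e-07). Its fall at 2 h of ALK7-CA (log2 change -0.35, adjusted p = 0.0236) did not pass without any 1 library other than ALK7-CA replicate 3 (adjusted p = 0.0502 to 0.0962). Asic2 rose in the 3 AJ comparisons after 24 h, and with ALK7-CA it stood at 82.5, 89.3 and 80.0 CPM in ALK7-CA libraries, against 60.01, 58.8 and 49.3 CPM in vector libraries (log2 change 0.57, SE 0.12, adjusted p = 0.00191). The libraries of neither gene overlapped between groups. Asic1 fell in AJ with ALK7-CA at 24 h (log2 change -0.46, adjusted p = 0.000463) and rose with activin B in vector cells (log2 change 0.22, adjusted p = 0.0152), in ALK7 cells (log2 change 0.45, adjusted p = 7.87e-05) and in βTC3 (log2 change 0.40, adjusted p = 0.00501). Of the P2X receptors other than P2rx7, P2rx4 fell in βTC3 with ALK7-CA at 24 h, to 33.2 CPM in ALK7-CA libraries against 41.0 CPM in vector libraries (log2 change -0.30, adjusted p = 0.0111), which did not pass without vector replicate 2 or ALK7-CA replicate 1 (adjusted p = 0.0592 to 0.0598). P2rx4 and P2rx3 rose in AJ at 24 h (log2 changes 0.33 and 0.64), the first not without vector replicate 1 or 3 or ALK7-CA replicate 1 or 2 (adjusted p = 0.0784 to 0.110), and P2rx3 overlaps the abundant Ssrp1.

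The effects of ALK7-CA at 24 h differed between the lines, AJ minus βTC3, for 18 channel genes upward and 15 downward of 85 tested. Of such differences, 8.32% of all genes were higher, 9.18% lower and 17.5% either. Those of activin B in vector cells differed for 11 channel genes upward and 4 downward of 81 tested, and 4.61% of all genes were higher, 4.51% lower and 9.12% either. Piezo1, Kcnj2 and Kcnk2 were lower in AJ in both, and Kcnc1 and Kcnmb2 higher in both. Kcnc2 and Kcnh1 passed in opposite directions, lower in AJ with ALK7-CA and higher with activin B. With activin B the differences were 0.48 for Kcnc2 (adjusted p = 0.0493) and 0.67 for Kcnh1 (adjusted p = 0.00648). With activin B, the call of Kcnj2 was lost without βTC3 vector replicate 2 or 3, βTC3 activin B replicate 1 or 2, AJ vector replicate 1 or AJ activin B replicate 2 (adjusted p = 0.0510 to 0.0895). Between 24 h and 2 h of ALK7-CA in βTC3, the effects differed for 5 channel genes upward and 7 downward of 73 tested, and 3.68% of all genes were higher, 2.17% lower and 5.85% either. With the block these were 12 and 13, and the share of all genes with the block is not given here. In AJ they differed for 19 channel genes upward and 19 downward of 84 tested, and 10.8% of all genes were higher, 10.2% lower and 21.0% either. Between ALK7 cells and vector cells of AJ, the effect of activin B differed for 1 upward and 2 downward of 79, and 1.15% of all genes were higher, 1.41% lower and 2.56% either. The 3 were Scn3b upward (0.28), and Kcnc1 and Kcnmb2 downward (-0.88 and -0.84). These ALK7 cells had dox for 24 h and the vector cells none, so plasmid and dox cannot be told apart here. Scn3b did not pass without ALK7 replicate 1 or 2 or ALK7 with activin B replicate 1, 2 or 3 (adjusted p = 0.0555 to 0.0779).

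Without ligand, AJ cells with ALK7 and 24 h of dox set against AJ vector cells without dox had 28 channel genes higher and 20 lower of 79 tested, and 14.5% of all genes were higher, 14.6% lower and 29.0% either. The plasmid and dox differ together in this comparison and cannot be told apart. Asic4 stood at 9.25, 9.12 and 10.4 CPM in ALK7 cells, against 3.17, 2.30 and 2.62 CPM in vector cells (log2 change 1.83, SE 0.14, adjusted p = 2.17e-06), and Kcnj6 at 5.10, 3.99 and 5.20 CPM in ALK7 cells, against 1.25, 1.61 and 1.41 CPM in vector cells (log2 change 1.75, SE 0.16, adjusted p = 7.37e-06). Both were higher in every ALK7 library. But AJ vector cells without dox differed between the batches. Asic4 stood there at 8.10 CPM in batch 1 and 2.70 CPM in batch 2, and at 10.1 CPM in batch 1 vector cells with 24 h of dox. Kcnj6 stood at 3.94 CPM in batch 1 vector cells without dox. The levels of the ALK7 cells were thus set against a low vector group, and the cause of that gap was not tested. Kcnh7 stood at 3.10, 2.86 and 1.96 CPM in ALK7 cells, against 0.491, 0.803 and 0.262 CPM in vector cells (log2 change 2.35, SE 0.33, adjusted p = 0.000235), and fell again with activin B in the same cells (log2 change -1.21, adjusted p = 0.00716). Kcna6, at 1.31 CPM in ALK7 cells and 0.142 CPM in vector cells, likewise fell with activin B (log2 change -1.22, adjusted p = 0.0333), a call lost without any 1 of the 6 libraries (adjusted p = 0.0667 to 0.112). For Kcnh7 and Kcna6 the same ALK7 libraries without ligand enter both comparisons, so the higher level and the later fall are not independent. Kcna6 also had its highest group mean in them, which is what took it in, with at most 0.305 CPM in any vector group. Kcns3 had 1 count in ALK7 cells and 25 in vector cells, so that vector cells were higher by a ratio of 11.8 (95% counting interval 1.94 to 485).

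Dox alone was followed in vector cells. In βTC3 vector cells, 24 h against 0 h of dox, 5 rose and 11 fell of 73, and 10.6% of all genes were higher, 12.7% lower and 23.3% either. The share of channel genes in βTC3, 21.9%, was thus near that of all genes in the fit without a block. With the replicate number as a block 14 rose and 17 fell. The share of all genes with the block is not given here for either line, so the block counts have none to be set against. In AJ vector cells 2 rose and 5 fell of 84 (5 and 6 with the block), and 1.43% of all genes were higher, 1.27% lower and 2.71% either. At 2 h in βTC3, edgeR called 0 of 73 (2 at an unadjusted p under 0.05) and 0.00633% of all genes were higher, 0.0% lower and 0.00633% either. At 2 h in AJ it called 0 of 84 (4 unadjusted) and 0.0% of all genes were higher, 0.0% lower and 0.0% either. DESeq2 called 0 and 0 channel genes at 2 h in βTC3 and AJ. In βTC3 at 24 h, Kcnmb1 stood at 0.323, 0.252 and 0.221 CPM with dox, against 2.59, 1.73 and 2.11 CPM without (log2 change -2.98, SE 0.27, adjusted p = 1.05e-05). Trpc4 was at -1.10, Kcnf1 at -0.94, Kcnj6 at -0.79 and Kcnk3 at -0.78 on the log2 scale. Trpc4, Kcnj6 and Kcnk3 thus fell with dox in vector cells and were higher with ALK7-CA than in vector cells at the same 24 h of dox. Kcnmb1 and Kcnip1 did so too, but their ALK7-CA means at 24 h stayed below vector cells without dox. Kcnmb1 stood at 0.556 CPM with ALK7-CA. Kcnip1 stood at 36.0 CPM with ALK7-CA, against 26.8 CPM in vector cells at 24 h and 39.5 CPM without dox. In AJ, Kcnj14 fell at 24 h (log2 change -1.32, adjusted p = 0.00265), as did Kcnj6 (log2 change -0.66, adjusted p = 0.0436), the second not without any 1 library other than 24 h replicate 3 (adjusted p = 0.0898 to 0.145). Piezo1, Scn1a, P2rx7 and Asic4 did not pass with dox alone in either line at 24 h.

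Outside these genes, 61 other genes of electrical activity (voltage-gated calcium channels and their subunits, Hcn, chloride and anoctamin channels, sodium pumps, pannexins and the parts of the ATP-sensitive potassium channel) were counted for context. With ALK7-CA at 24 h, 8 rose and 7 fell of 45 tested in βTC3 and 18 rose and 11 fell of 50 tested in AJ, and at 2 h 2 rose and 0 fell of 45 tested and 9 rose and 2 fell of 50 tested. With activin B, 10 rose and 6 fell of 42 tested in βTC3, 13 rose and 6 fell of 48 tested in AJ vector cells and 15 rose and 5 fell of 48 tested in ALK7 cells. In the same order, 13.5%, 40.7%, 1.53%, 15.8%, 22.2%, 22.5% and 32.8% of all genes passed in these comparisons. Cacna1g, a low-voltage-activated calcium channel, rose in all 5 comparisons after 24 h, by 3.51 and 2.95 in βTC3 with ALK7-CA and activin B, and by 3.00, 2.06 and 1.91 in AJ. Abcc8, the sulfonylurea receptor of the beta cell channel, fell in all 5 (log2 changes -0.46 and -0.29 in βTC3, -1.66, -1.17 and -1.49 in AJ), and its relative Abcc9 rose in all 5 (1.22, 1.56, 2.64, 2.24 and 1.35 in the same order).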

How the data were processed

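RNA was taken with Trizol from wells plated in triplicate, and 500 ng of RNA per sample went into stranded mRNA library preparation, per the labels' protocols. The deposited per-sample tables give raw counts by Ensembl identifier. The submitters' processing notes name mm10, edgeR, HISAT2, featureCounts 1.4.4, cutadapt 1.4.2 and bcl2fastq 2.17, and no strand setting. A second deposited table with 48 columns of normalized values was left out. No replicate pair was identical. Symbols and positions came from GENCODE M21 (GRCm38).

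Fits used R 4.3.3 and edgeR 4.0.16: filterByExpr (minimum count 10, minimum total 15, proportion 0.7), TMM scaling, the quasi-likelihood F test and Benjamini-Hochberg adjustment over all tested genes at 0.05. Each fit held the libraries of 1 line in 1 batch, and for comparisons across lines only the groups concerned. The SE is the size of the log2 change over the square root of F. DESeq2 1.42.0 served as an alternative. Fits were tested on simulated counts with known changes. Replicate numbers were read as pairs where each replicate's residual correlation across 8842 genes exceeded 0.1 between the groups compared: all comparisons within βTC3 (10 of 10 pairs of groups in batch 1, 1 of 1 in batch 2), and in AJ ALK7-CA against vector at 2 h and dox at 24 h (5 of 10 and 1 of 6 pairs of groups in all).

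Results of some channel genes are not reported here. The channel genes and the lists were chosen with earlier results of these data known. Genes given with values were the 4 markers in every group and, per comparison, called members with separate libraries, up to 10 each way with ALK7-CA or activin B, 8 each way between lines, 5 for differences and 4 elsewhere. Genes that passed in all or nearly all comparisons after 24 h, other values of genes so named, and further members of their families were added after their values were seen. So were the view without the AJ replicate that stood apart, the rule of 27 genes for it (genes at 10 CPM or more in βTC3 and under 0.1 CPM in AJ) and the count over the 73 genes. Counting intervals are exact at 95% and cover counting error only, as does the floor of 3 counts.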

Additional observations from a re-analysis of the deposited data

Results flagged for a closer look

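Effects on a channel gene differed between lines, times or cells in 42 cases taken by the rule for naming genes, each by a test of the difference itself in edgeR with adjusted p under 0.05 over all tested genes. Values are differences between log2 effects. For ALK7-CA at 24 h, AJ minus βTC3, they were 4.02 for Kcnmb4os2, 3.54 for Scn9a, 3.25 for Trpc4, 2.69 for Kcns2, 2.47 for Kcnmb4, -4.03 for Trpc7, -3.70 for Kcns3, -2.86 for Piezo1, -2.30 for Kcnj2 and -1.59 for Kcnh1. That of Scn9a did not pass without βTC3 vector 24 h replicate 1 or 3, βTC3 ALK7-CA 24 h replicate 1 or 2 or AJ vector 24 h replicate 1, 2 or 3 (adjusted p = 0.0536 to 0.0905). That of Kcns2 did not pass without βTC3 vector 24 h replicate 1 or 3 or βTC3 ALK7-CA 24 h replicate 1 (adjusted p = 0.0593 to 0.113). The values of Scn9a and Trpc4 rest on 7 and 3 counts over the AJ vector libraries, and that of Scn9a also on the AJ replicate that stood apart. Piezo1 and Kcnj2 recurred with activin B, AJ vector cells minus βTC3 vector cells, where the differences were 2.35 for Asic4, 1.85 for Kcnk9, 1.57 for Kcnmb2, 1.33 for Kcnc1, 1.25 for Kcnh5, -3.28 for Piezo1, -1.40 for Kcnj2, -1.39 for Trpm5 and -1.30 for Kcnk2. That of Kcnh5 did not pass without βTC3 activin B replicate 1 or AJ activin B replicate 1 or 2 (adjusted p = 0.0523 to 0.0550). That of Kcnj2 did not pass without βTC3 vector replicate 2 or 3, βTC3 activin B replicate 1 or 2, AJ vector replicate 1 or AJ activin B replicate 2 (adjusted p = 0.0510 to 0.0895).

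Between 24 h and 2 h of ALK7-CA in βTC3, the differences were 2.72 for Piezo1, 2.09 for Kcng4, 1.33 for Trpc4, 1.11 for Kcnip3, 0.98 for Kcnj6, -0.91 for P2rx7, -0.83 for Kcnip4, -0.67 for Kcnh1, -0.60 for Kcnc2 and -0.46 for Trpm5. That of Kcng4 did not pass without any 1 library other than ALK7-CA 24 h replicate 3, ALK7-CA 2 h replicate 1 or vector 2 h replicate 3 (adjusted p = 0.0558 to 0.227). That of Kcnh1 did not pass without vector 24 h replicate 1, ALK7-CA 24 h replicate 1, vector 2 h replicate 2 or ALK7-CA 2 h replicate 1 or 3 (adjusted p = 0.0515 to 0.0539). That of Kcnc2 did not pass without any 1 library other than vector 2 h replicate 1 (adjusted p = 0.0505 to 0.0901). Piezo1, Kcng4 and Trpc4, which passed at 24 h and not at 2 h, lead the positive side, and P2rx7 the negative one. In AJ the same difference was 6.46 for Kcnj5, 6.12 for Trpc4, 5.96 for Scn9a, 2.82 for Kcnmb4os2, 1.64 for Trpv2, -3.08 for Kcnj15, -2.11 for Trpm3, -2.03 for Scn1a, -1.83 for Kcnj2 and -1.76 for Kcnj13. That of Scn9a did not pass without vector 2 h replicate 3 (adjusted p = 0.0510). That of Kcnmb4os2 did not pass without vector 24 h replicate 1 or 3, ALK7-CA 24 h replicate 2, vector 2 h replicate 1 or ALK7-CA 2 h replicate 1 (adjusted p = 0.0501 to 0.239). Kcnj5, Trpc4 and Scn9a had at most 7 counts over the vector libraries at 24 h, and Kcnmb4os2 stood there at 0.119 CPM. Between ALK7 cells and vector cells of AJ, the effect of activin B differed by 0.28 for Scn3b, -0.88 for Kcnc1 and -0.84 for Kcnmb2. That of Scn3b did not pass without ALK7 replicate 1 or 2 or ALK7 with activin B replicate 1, 2 or 3 (adjusted p = 0.0555 to 0.0779). The ALK7 cells had dox for 24 h and those vector cells none, so plasmid and dox cannot be told apart there. What sets any of these differences was not tested.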

How the results depend on the processing

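Counts of channel genes that passed stayed within 1.5 times under DESeq2, RLE scaling, total counts, no low-count filter, a stricter filter of 1 CPM in 3 libraries, fits of only the groups compared and the replicate number as a block, except in 5 comparisons. With ALK7-CA at 2 h in βTC3 (4 calls), DESeq2 gave 8, only the groups compared 1, the stricter filter 7 and the block 10, and among all genes the block made 63.6% of calls upward, against 82.2% without it. For dox at 24 h in βTC3 (16 calls) only the groups compared gave 10 and the block 31, and in AJ (7 calls) only the groups compared gave 1, no filter 4 and the block 11. For the difference between times in βTC3 (12 calls) the block gave 25, and for that between ALK7 and vector cells (3 calls) total counts gave 5 and the block 7. The cause was not tested. Replicate numbers were read as pairs where given with the methods, and there the block took no adjusted p printed in the text across 0.05 other than where its value stands beside the result.

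With each library left out in turn, the calls ran from 20 to 25 at 24 h and 2 to 4 at 2 h with ALK7-CA in βTC3, 51 to 55 and 21 to 33 in AJ, 23 to 29 with activin B in βTC3, 23 to 26 in AJ vector cells, 38 to 45 in ALK7 cells, 41 to 48 for ALK7 over vector, 12 to 16 and 2 to 5 for dox at 24 h, 73 to 77 and 68 to 71 between lines, and 26 to 36, 12 to 17, 7 to 12, 34 to 41 and 2 to 4 for the differences in the order given above. Of 539 calls of channel genes over the 19 comparisons, 106 were lost without some 1 library. Of 217 calls named by rule, 176 held in every setting and 41 were lost in at least 1, and none reversed. Direction turned in 8 values of genes that had not passed, among these ranges of log2 change: -0.27 (without vector replicate 3) to 0.076 (without vector replicate 2) for Asic4 and -0.063 (without vector replicate 3) to 0.19 (without vector replicate 1) for Piezo1 in AJ with ALK7-CA at 24 h, -0.023 (without ALK7-CA replicate 1) to 0.26 (without ALK7-CA replicate 3) for Piezo1 at 2 h, -0.045 (without activin B replicate 3) to 0.12 (without vector replicate 3) for Piezo1 in AJ with activin B, and -0.15 (without vector replicate 3) to 0.035 (without activin B replicate 3) for P2rx7 in βTC3 with activin B. A limit of 0.5 CPM would take 95 genes and one of 2 CPM 77. Depth limits genes of few counts, such as Trpc7, Kcnj13 and Kcnmb1.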
